A study of Homo sapiens with 40 samples.

Results

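The chromatin around 10 genes of the cadherin switch and the epithelial-mesenchymal transition (EMT) was examined in BT474 and BT474R cells: CDH1, CDH2, CDH3, VIM, FN1, SNAI1, SNAI2, ZEB1, ZEB2 and TWIST1. Peaks of 40 ATAC-seq lists were merged where they shared at least 1 bp, regions found in at least 2 lists were kept, and those whose midpoint lay in the GENCODE body of one of the genes or within 50 kb of either end were taken. This gave 61 of the 71600 regions of the series. The rule used gene positions and the presence of a peak in at least 2 lists, and no peak score. A region could enter through peaks of either line alone.

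BT474 is an established breast ductal carcinoma line that overexpresses HER2 and is inhibited by trastuzumab, an antibody to that receptor. BT474R is, per the study's methods, clone 5, obtained from BT474 grown with trastuzumab, so that the resistant state is represented by 1 clone. In each line, serum-starved cells received EGF (epidermal growth factor, which binds EGFR), HRG (heregulin, which binds HER3 and HER4) or water (control) for 1, 12 or 24 h, or were collected untreated at 0 h (baseline). Each of the 20 groups held 2 libraries, labelled as replicates of a duplicate treatment, and all p-values measure only the spread between these libraries.

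Cadherins are calcium-dependent adhesion proteins. CDH1 encodes E-cadherin, which holds epithelial cells together, CDH3 encodes P-cadherin, found in basal layers of the breast, and CDH2 encodes N-cadherin, typical of mesenchymal and neural cells. In EMT, E-cadherin is lost and N-cadherin, vimentin (VIM, an intermediate filament protein) and fibronectin (FN1, a matrix protein) are gained, and the transcription factors SNAI1, SNAI2, ZEB1, ZEB2 and TWIST1 drive this change, in part by binding E-box sequences in the CDH1 promoter. BT474 is an epithelial line of luminal type, and the series followed its chromatin after HER-family ligands with and without acquired trastuzumab resistance.

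A library was called open at a region where it had a peak, and the height of a region was the rank percentile of its peak score (the area under the curve of significance that the peak caller gave) among all peaks of the same list, 100 being the highest score. The score grows with both the height and the width of a peak. The lists held between 47571 and 56846 peaks in BT474 and between 32479 and 56494 in BT474R, and the shortest was a control-BT474R list at 12 h, whose replicate held 40331. Peak lists carry no read totals, so depth was unknown, and closed here means only that no peak was called. Promoters of 11 of 11 luminal markers were open in all 20 libraries of each line, against 1 of 8 fibroblast, 2 of 5 basal, 1 of 5 leukocyte and 3 of 4 endothelial markers in BT474 and 1, 1, 0 and 2 in BT474R.

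The 61 regions were unevenly spread over the loci. CDH1 and CDH3 are neighbours on chromosome 16 and had 19 regions each, of which 13 lay in both windows. SNAI1 had 14 regions, VIM 5, FN1 4, CDH2, ZEB1 and TWIST1 3 each, and SNAI2 and ZEB2 2 each. Of the 61 regions, 13 lay at a promoter of one of the 10 genes (within 1 kb of an annotated transcript start), 5 at the promoter of a neighbour (RNF114, TANGO6, ATIC, TRDMT1 and GTDC1), 24 elsewhere in the body of a protein-coding gene and 19 between genes. The region farthest from its gene but still inside the limit lay 49.8 kb from SNAI1, and the nearest one left out lay 51.3 kb from SNAI1 and was open in 20 BT474 and 12 BT474R libraries. At CDH3 the corresponding distances were 45.5 kb inside and 51.4 kb outside.

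Sequences of 4 regions that the ligand and line comparisons turned on are shown first, as 200 bp around the summit of the highest peak of the region, on the plus strand of hg38. The matches to the AP-1 motif TGACTCA and to the E-box CAGGTG, on either strand, are in capitals. AP-1 is the dimer of FOS and JUN proteins that growth factor signalling induces, and the E-box is the letter string that SNAI and ZEB proteins bind. The first sequences lie in introns of CDH1, 18.8 and 23.8 kb after its start, in regions that ranked higher after either ligand.
CDH1 intron, chr16:68756273-68756472: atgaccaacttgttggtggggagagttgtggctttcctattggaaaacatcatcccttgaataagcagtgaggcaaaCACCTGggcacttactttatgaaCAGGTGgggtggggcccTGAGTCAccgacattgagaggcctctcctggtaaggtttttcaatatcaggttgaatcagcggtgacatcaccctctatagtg
CDH1 intron, chr16:68760996-68761195: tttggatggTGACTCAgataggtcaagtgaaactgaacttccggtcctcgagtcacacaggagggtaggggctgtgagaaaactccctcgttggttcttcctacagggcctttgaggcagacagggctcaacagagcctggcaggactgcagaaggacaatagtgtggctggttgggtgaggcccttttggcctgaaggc

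A further sequence lies between genes downstream of SNAI1, 51.9 kb after its start, in a region that rose in rank after either ligand in BT474.
downstream of SNAI1, chr20:50034891-50035090: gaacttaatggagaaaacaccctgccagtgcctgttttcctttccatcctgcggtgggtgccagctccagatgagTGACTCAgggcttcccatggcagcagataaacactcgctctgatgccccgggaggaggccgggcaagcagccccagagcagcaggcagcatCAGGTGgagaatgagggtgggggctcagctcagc

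The last sequence separated the lines. It lies in an intron of CDH3, 29.7 kb before the start of CDH1, in a region that was open in every BT474 and no BT474R library.
CDH3 intron, chr16:68707857-68708056: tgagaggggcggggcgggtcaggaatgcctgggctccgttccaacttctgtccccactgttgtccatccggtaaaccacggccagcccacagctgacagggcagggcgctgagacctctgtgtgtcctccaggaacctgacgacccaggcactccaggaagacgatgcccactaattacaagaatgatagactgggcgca

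RefSeq promoter sequences (250 bp before a transcript start, GRCh38.p14) matched 5 of the 10 genes, with 12 starts between them: CDH2, FN1, VIM, ZEB1 and ZEB2. CAGGTG was found on either strand before ZEB1 starts alone, with 1 match before its first start and 2 before another. The share with a match over all 35116 promoters was 17.5%, and 12 starts are too few to set against it. CDH1 was not among the matched genes, and the 200 bp around the summit of its promoter region held 3 matches. The ZEB1 sequence below ends at the first of its starts, overlaps the promoter region described under the ligand comparisons, and holds 1 match, at -57 from that start.
ZEB1 promoter, chr10:31318167-31318416: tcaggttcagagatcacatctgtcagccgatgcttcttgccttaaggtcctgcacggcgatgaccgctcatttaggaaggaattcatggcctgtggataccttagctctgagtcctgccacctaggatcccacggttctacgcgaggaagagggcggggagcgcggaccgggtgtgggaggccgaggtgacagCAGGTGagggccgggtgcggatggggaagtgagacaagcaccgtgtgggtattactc

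The promoters of both E-cadherin and its mesenchymal counterpart were open. The CDH1 promoter region (chr16:68736869-68737780, overlapping the transcript start) had a peak in all 40 libraries, at a rank percentile of 71.4 ± 1.72 (SD, n = 20) in BT474 and 58.9 ± 5.11 (SD, n = 20) in BT474R. The CDH2 promoter region (chr18:28176034-28178591) also had a peak in all 40, at 69.0 ± 7.80 in BT474 and 73.4 ± 13.8 in BT474R (SD, n = 20 each). CDH2 spread far more widely between libraries than CDH1, between 53.0 and 85.7 in BT474 and between 46.3 and 92.1 in BT474R. A further CDH1 promoter region, 1.2 kb after the gene start, stood at 60.6 ± 5.14 (SD, n = 20) in BT474, whereas in BT474R it was found in 15 libraries at 17.0 ± 12.8 (SD), and its presence did not pass the test between lines (adjusted p = 0.0597). A promoter region inside CDH2, at an internal transcript start 164.2 kb from the gene start, was open in 0 BT474 and 4 BT474R libraries.

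CDH3 had 3 promoter regions that behaved differently. The one at the gene start (chr16:68636056-68636566) was open in 13 of 20 BT474 and 4 of 20 BT474R libraries, at low rank where present, 20.8 ± 11.0 (SD) in BT474. The one 9.3 kb further on, shared with the antisense transcript CDH3-AS1, was open in all 40 libraries at 69.5 ± 4.60 and 64.3 ± 16.3 (SD, n = 20 each). The third, 60.5 kb after the gene start and 40.6 kb before CDH1, was open in 18 BT474 libraries and 0 BT474R libraries.

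The VIM promoter region (chr10:17229067-17231000, shared with VIM-AS1) was open in all 40 libraries and stood high, at 87.5 ± 3.14 in BT474 and 88.6 ± 5.78 in BT474R (SD, n = 20 each). FN1 and ZEB2 had no promoter region in either line, and neither did 28.8% of 19962 protein-coding genes. The 4 regions in the FN1 window were the ATIC promoter, an ATIC intron and 2 regions that overlapped FN1 exons 38.1 and 74.0 kb after its start. These last 2 were open in all 20 BT474 libraries and in 19 and 17 BT474R libraries. The regions in the ZEB2 window were the GTDC1 promoter, open in all 40, and a region 31.9 kb beyond the end of ZEB2, open in 18 BT474 and 11 BT474R libraries.

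Among the transcription factors, the promoters of TWIST1, SNAI1 and SNAI2 were open in all 40 libraries. TWIST1 (chr7:19116130-19118120) stood at 90.4 ± 1.79 in BT474 and 77.3 ± 7.99 in BT474R (SD, n = 20 each), SNAI1 (chr20:49982017-49983070) at 86.0 ± 1.25 and 79.1 ± 3.84, and SNAI2 (chr8:48921271-48922143) at 72.0 ± 5.98 and 62.1 ± 18.6. The SNAI2 values in BT474R ranged from 28.4 to 80.9. The ZEB1 promoter (chr10:31318168-31319646, shared with ZEB1-AS1) was open in 20 BT474 libraries at 68.8 ± 6.91 and in 16 BT474R libraries at 41.4 ± 17.4 (SD). Of the 4 BT474R libraries without it, 2 were the 12 h controls. Because the score grows with peak width, no order was read between promoters of different genes.

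**Figure D1:**
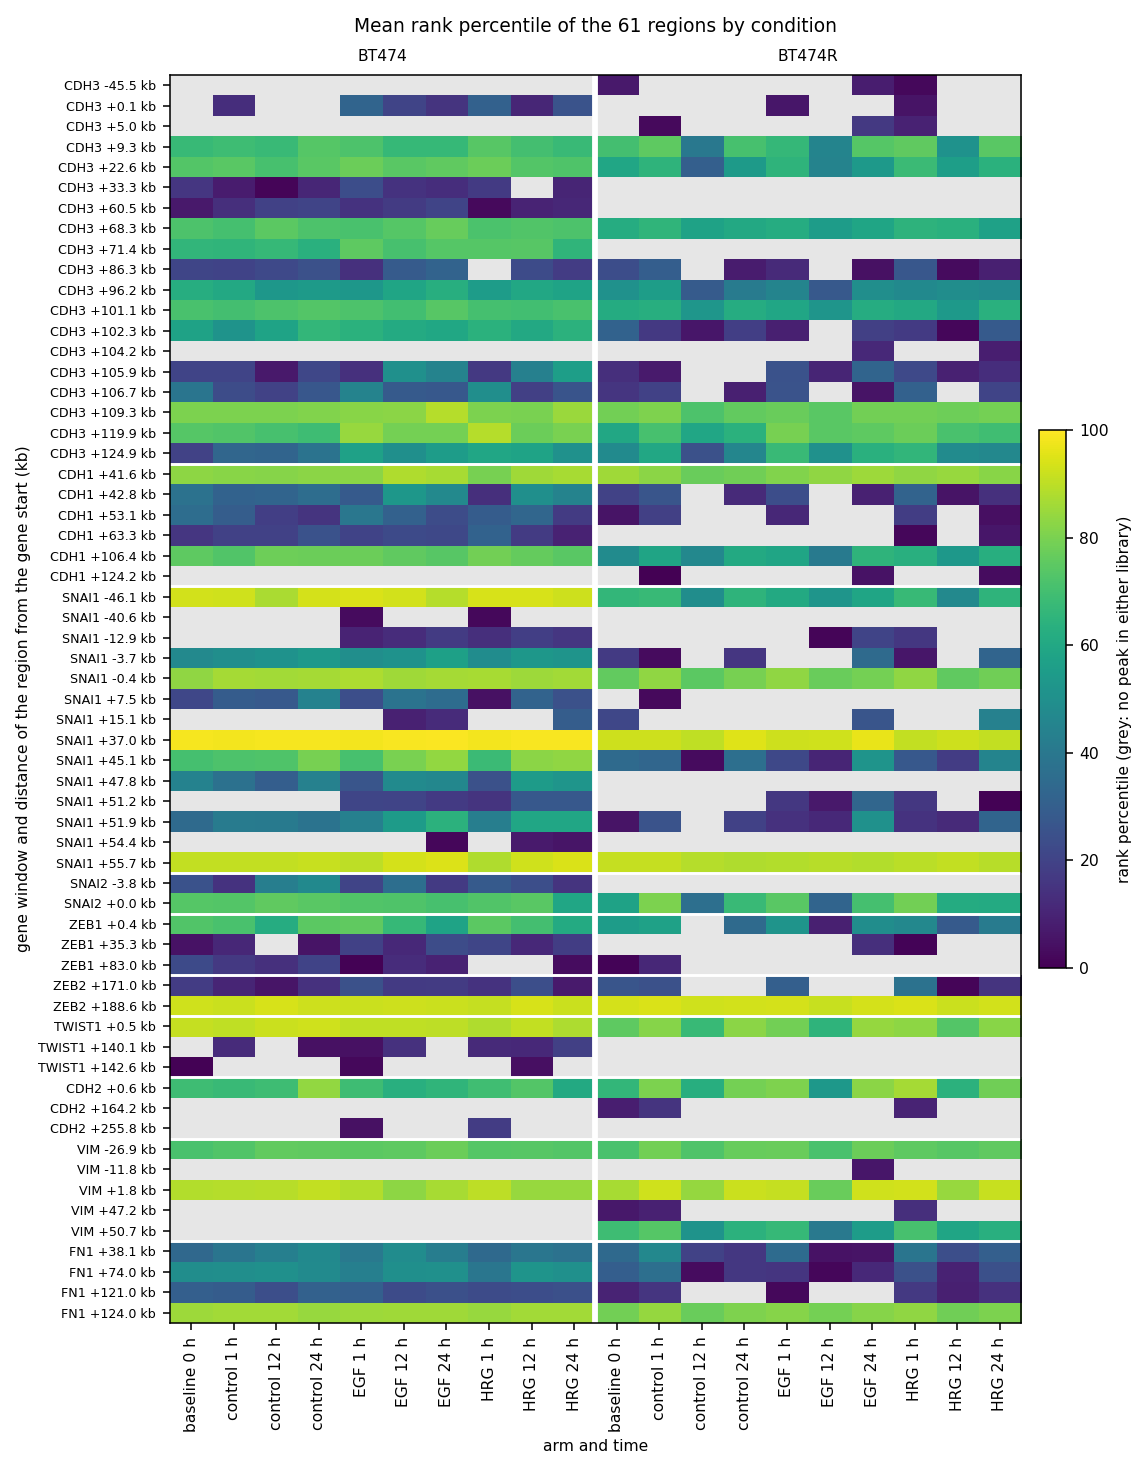
Mean rank percentile (colour, 0 to 100) of the 61 regions (rows, by gene window and distance from the gene start in kb, a region shared by CDH3 and CDH1 being drawn once under CDH3) in the 20 conditions (columns, 10 for BT474 on the left and 10 for BT474R on the right). Each cell is the mean over the libraries of the condition that had a peak, and grey marks conditions with a peak in neither library, which are more frequent in BT474R. The SNAI1 region at +37.0 kb is the brightest row in BT474, at 98.7.

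Whether these loci differ between the sensitive and the resistant line was asked with all 20 libraries of each. Fewer of the regions were open in BT474R: a BT474 library had between 41 and 50 of the 61 regions open (46.2 ± 2.48, SD, n = 20) and a BT474R library between 23 and 43 (33.8 ± 6.18, SD, n = 20). A BT474 library had on average 75.7% of the members open, against 68.3% of all regions. The corresponding shares in BT474R were 55.4% and 62.2%, so that fewer regions were open over the whole series as well. Regions open in all 20 libraries of a line numbered 38 in BT474, 62.3% against 51.4% of all regions, and 22 in BT474R, 36.1% against 39.5% of all regions. Of the 61 regions, 21 were open in all 40 libraries, 10 had no peak in any BT474R library and 8 had none in any BT474 library. Over all 71600 regions the same counts were 25166, 9926 and 10013, which are similar shares, so they were not read as a trait of these loci.

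By Fisher's exact test (two-sided, 20 against 20 libraries, Benjamini-Hochberg over 32683 regions whose totals allowed p below 0.05), 18 of 26 testable member regions were less often open in BT474R and 1 was more often open. The background over all testable regions was 44.6% lower and 27.2% higher. With an equal number of top-ranked peaks taken from each list, 12 regions were called in place of 19, and without the 12 h libraries of both lines, an alternative chosen after seeing the data because the shortest lists lie there, 14 were called.

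Regions less often open in BT474R included parts of the cadherin stretch, most of them at low rank in BT474 already. The CDH3 intron region whose sequence is shown above (chr16:68707000-68708120) was no marginal peak in BT474, with a percentile between 57.2 and 75.2 (median 70.9), and had no peak in any BT474R library (0 against 20 of 20, adjusted p = 1.91e-10). A region at an internal transcript start of CDH1, 63.3 kb after the gene start, was open in 20 BT474 and 2 BT474R libraries (adjusted p = 2.32e-08), at a mean percentile of 20.3 in BT474. A further 4 regions in CDH1 introns, 4.8, 5.6, 53.1 and 42.8 kb after the start, were open in 20 BT474 libraries each and in 12, 11, 6 and 15 BT474R libraries, of which the last did not pass the test (adjusted p = 0.0597). Their mean percentiles in BT474 were 29.5, 30.4, 27.2 and 37.4. In CDH3, the alternative promoter and an intron region 33.3 kb after the start were open in 18 and 15 BT474 libraries and in no BT474R library, and the region at the gene start fell from 13 to 4 libraries (adjusted p = 0.0150). Where present in BT474, the alternative promoter and the intron region had mean percentiles of 13.4 and 13.1.

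**Figure D2:**
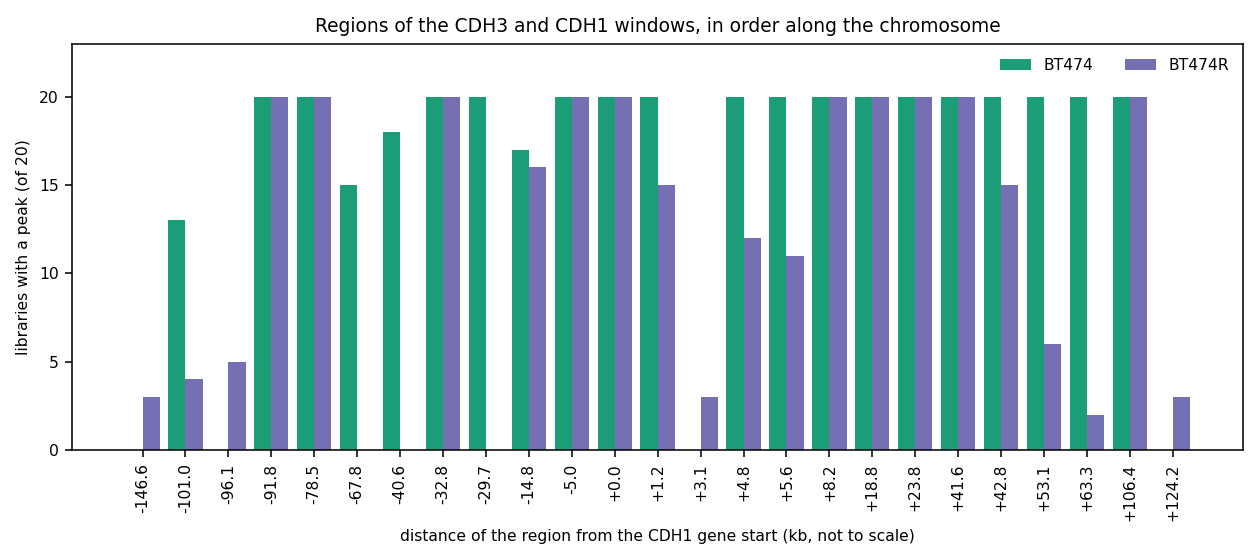
Number of libraries with a peak (vertical axis, of 20 per line) at the 25 regions of the CDH3 and CDH1 windows, ordered along chromosome 16 and labelled by their distance from the CDH1 gene start in kb (the spacing is not to scale). Green bars are BT474 and purple bars BT474R; at -29.7 kb only the BT474 bar is present, at 20.

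Around SNAI1, a region 47.8 kb after the gene start was open in 20 BT474 and 0 BT474R libraries (adjusted p = 1.91e-10), and one 7.5 kb after the start in 20 and 1 (adjusted p = 2.64e-09). Their mean percentiles in BT474 were 40.7 and 28.1. A region 3.7 kb upstream of SNAI1 stood at 51.2 ± 4.17 (SD, n = 20) in BT474 and was open in 7 BT474R libraries (adjusted p = 4.05e-05), and the region 51.9 kb after the start was open in 20 and 14 (adjusted p = 0.0287). Upstream of SNAI2, a region 3.8 kb from the gene start (chr8:48925261-48925884) was open in 20 and 0 libraries (adjusted p = 1.91e-10), although its rank in BT474 was modest (27.1 ± 12.5, SD, n = 20). Intron regions of ZEB1, 35.3 and 83.0 kb after its start, fell from 16 to 3 and from 15 to 2 libraries (adjusted p = 2.37e-04 and 1.88e-04). Where present in BT474 they were weak, at mean percentiles of 15.1 and 13.2. In the window of TWIST1, a region in an intron of HDAC9 was open in 11 BT474 and 0 BT474R libraries, and in the window of FN1 the ATIC intron region was open in 20 and 8. The mean percentiles of these regions in BT474 were 10.9 and 26.2. The region beyond ZEB2, at 18 against 11 libraries, was the weakest call (adjusted p = 0.0431) and turned to the other direction with a stricter score or with peaks covering most of the region.

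The single region gained in BT474R lay downstream of vimentin, 41.4 kb past the end of VIM. It was open in 0 of 20 BT474 and 20 of 20 BT474R libraries (adjusted p = 1.91e-10), where its percentile ran from 40.4 to 74.2 with a median of 64.2. Its highest values were in control-BT474R at 1 h, 74.2 and 73.1, and its lowest in EGF-BT474R at 12 h, 40.5 and 40.4. The VIM promoter itself did not pass the rank test between lines (1.12 points ± 0.944, SE, adjusted p = 0.275).

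Ranks were compared over the 21 regions open in all 40 libraries, with limma on the group means of both lines and adjustment over 25166 regions. Of the 21, 14 were lower and 2 higher in BT474R, against a background of 50.2% lower and 32.6% higher, and the median difference was -6.07 points against -1.51 over all regions. With percentiles taken among the tested regions alone, the background was 42.5% lower and 41.5% higher, and 14 members were lower and 5 higher. The largest difference was at the RNF114 promoter, 46.1 kb upstream of SNAI1, where BT474 stood at 92.3 and BT474R at 59.9 (-32.4 points ± 1.78, SE, adjusted p = 5.57e-14). RNF114 encodes a ubiquitin ligase and is a neighbour, not a gene of the EMT programme.

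Among the EMT genes' own promoters, CDH1 fell by 12.5 points ± 0.964 (SE, adjusted p = 2.88e-11), and TWIST1 fell by 13.1 points. The lowest BT474 value at the CDH1 promoter was 69.0 and the highest BT474R value 67.0, so that the lines did not overlap. TWIST1 ranges, by contrast, overlapped, with a lowest BT474 value of 85.9 and a highest BT474R value of 88.6. SNAI1 fell by 6.93 points, and SNAI2 fell by 9.88 points (SE 3.00, adjusted p = 0.00429), its ranges overlapping. With the score divided by the width of the peak, the CDH1 promoter differed by -3.26 points ± 3.14 (SE, adjusted p = 0.385) and the SNAI2 promoter by -5.19 points ± 2.67 (SE, adjusted p = 0.0953), so that neither call held, whereas TWIST1 and SNAI1 stayed lower (-15.3 and -19.7 points). CDH2, 4.45 points ± 2.95 (SE), and the CDH3 promoter at 9.3 kb, -5.24 points ± 3.01 (SE), did not pass the test (adjusted p = 0.165 and 0.110).

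Other parts of the cadherin stretch also ranked lower in BT474R. The CDH3 intron region 22.6 kb after the start fell from 74.4 to 56.1, a second CDH3 intron region from 72.8 to 60.7, the region 5.0 kb before CDH1 from 57.8 to 44.3, and the TANGO6 promoter beyond CDH1 from 76.0 to 55.8. With the score divided by peak width the region 5.0 kb before CDH1 was no longer called (-1.40 points ± 3.26, SE, adjusted p = 0.732). Over the 16 line calls, 9 held in the same direction by that measure, 4 were lost (the promoters of CDH1 and SNAI2, the region before CDH1 and the CDH1 intron region at 18.8 kb) and 3 turned. The strongest member region in BT474, 37.0 kb after the start of SNAI1 (chr20:50019170-50020795), fell from 98.7 ± 0.383 to 92.6 ± 2.67 (SD, n = 20 each). One CDH1 intron region went the other way: the one at 23.8 kb was higher in BT474R, 52.1 against 45.3 (6.78 points ± 1.76, SE, adjusted p = 0.00118). The surroundings moved too. Regions open in all 40 libraries within 1 Mb of a window and outside it had a median difference of -6.59 points at CDH1 (35 regions) and -5.27 at SNAI1 (95 regions), but -0.18 at VIM (9 regions) and 6.61 at TWIST1 (4 regions). The lower ranks at CDH1 and SNAI1 lay in stretches whose other regions were lower as well, and the part of DNA copy number in the line differences was not tested.

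**Figure D3:**
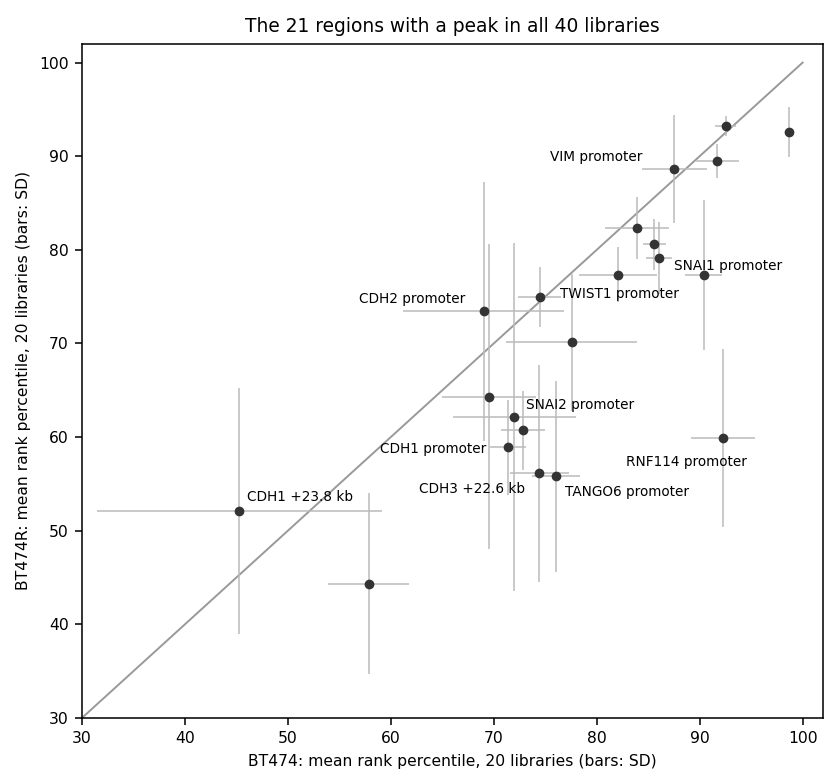
Mean rank percentile over 20 libraries in BT474 (horizontal axis) and in BT474R (vertical axis) of the 21 regions with a peak in all 40 libraries; bars are the SD over libraries and the line marks equal values. Most points lie below the line, the RNF114 promoter farthest (92.3 and 59.9), while the VIM promoter (87.5 and 88.6) and the CDH2 promoter (69.0 and 73.4, with wide bars) lie near it.

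The response of BT474 to its ligands was asked against water controls of the same time. In BT474 more of the 61 regions were open after a ligand: between 47 and 50 in EGF-BT474, 46 and 48 in HRG-BT474 and 42 and 46 in the controls. The EGF and control ranges did not overlap. Over all regions the shares were 71.0%, 68.5% and 66.5%.

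By presence (Fisher's exact test, two-sided, 6 against 6 libraries over the 3 times, unadjusted p below 0.05), 1 member region was gained in EGF-BT474 and 2 in HRG-BT474, of 2 and 4 members whose totals allowed a call, and none was lost. The background for EGF was 18.3% of 4492 testable regions gained and 0.690% lost, and for HRG 20% of 4754 gained and 4.69% lost. After adjustment over all testable regions 6.41% and 7.97% were gained. The region gained after either ligand lay 51.2 kb after the start of SNAI1. It was open in 6 of 6 EGF and 6 of 6 HRG libraries and in 0 of 6 control and 0 of 2 baseline libraries (adjusted p = 0.0335 and 0.0241), so that it was present from 1 h on. Its peaks were weak, at percentiles between 9.54 and 31.6 in EGF-BT474 and between 7.39 and 32.8 in HRG-BT474, and neither call held with a score of at least 400 or with an equal number of top-ranked peaks. The second region gained in HRG-BT474 lay 12.9 kb upstream of SNAI1, at 5 of 6 against 0 of 6 libraries (adjusted p = 0.0615). In EGF-BT474 the same region was open in 4 of 6, which cannot reach the threshold.

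Several regions differed by at least 3 of 6 libraries without reaching it. The CDH3 gene start region was open in 6 of 6 EGF-BT474 libraries against 2 of 6 controls, where both open controls were those of 1 h (exact p = 0.0606). In HRG-BT474 the same region was open in 5 of 6 libraries (exact p = 0.242). A region 54.4 kb after the start of SNAI1 was open in 3 of 6 HRG-BT474 libraries and 0 of 6 controls (exact p = 0.182). A region 15.1 kb after the start of SNAI1 was open in 4 of 6 EGF-BT474 libraries, those of 12 and 24 h, and in no control (exact p = 0.0606). ZEB1 introns moved in opposite directions: the one at 35.3 kb was open in 6 of 6 libraries of either ligand and 3 of 6 controls, and the one at 83.0 kb in 2 of 6 HRG-BT474 libraries and 6 of 6 controls (exact p = 0.0606). None of these passed the test.

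Rank was the finer measure, with 38 members open in all 20 BT474 libraries tested by limma at each time. EGF-BT474 had 14 calls and HRG-BT474 19, and 24 of the 33 were higher after the ligand. Higher calls numbered 3, 4 and 5 at 1, 12 and 24 h of EGF, against 1.91%, 8.07% and 12.8% of 36820 regions, and 3, 5 and 4 for HRG, against 3.80%, 8.38% and 8.88%. Lower calls numbered 0, 0 and 2 for EGF, against 1.01%, 0.155% and 1.93%, and 2, 0 and 5 for HRG, against 6.97%, 0.668% and 3.15%. The median over the members stayed within 2.87 points of 0 in these 6 comparisons, and that over all regions within 1.44. The higher calls fell on 10 regions, 5 in CDH1 introns and 5 around SNAI1. The control and baseline libraries gave no call at any member at any time (limma, 0 of 38 called, with 3, 10 and 11 at an unadjusted p below 0.05).

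The CDH1 intron region at 23.8 kb (chr16:68760758-68761335) responded to either ligand. Its percentile in control-BT474 was 37.9 and 27.9 at 1 h, 22.8 and 41.8 at 12 h and 33.8 and 42.2 at 24 h. In EGF-BT474 it was 57.5 and 56.8 at 1 h, 46.9 and 52.6 at 12 h and 54.9 and 55.4 at 24 h, and in HRG-BT474 it was 56.7 and 61.9, 57.8 and 58.1, and 49.98 and 51.3. Every ligand library lay above every control library. The difference at 1 h was 24.3 points ± 5.17 (SE, adjusted p = 0.0265) for EGF and 26.4 points ± 5.17 (SE, adjusted p = 0.00632) for HRG, and calls also came at 24 h of EGF (17.2 points) and 12 h of HRG (25.6 points).

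The CDH1 intron region at 18.8 kb (chr16:68755471-68756795) was already high and rose further. Controls lay between 68.9 and 73.5, EGF-BT474 between 75.5 and 86.6 and HRG-BT474 between 76.7 and 89.1, again without overlap. The untreated baseline libraries stood at 70.0 and 77.3, the second of them within both ligand ranges. At 1 h of HRG the replicates stood at 89.0 and 89.1 against 73.5 and 72.0 (16.3 points ± 2.63, SE, adjusted p = 0.00214), and at 1 h of EGF at 86.6 and 82.4 (11.8 points, adjusted p = 0.0333). Peaks there were also wider at 1 h, 1240 bp on average after HRG and 882 bp after EGF against 474 bp in controls. At 24 h the differences were 10.2 and 10.9 points for EGF and HRG.

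At 4.8 kb in CDH1 the response came later. At 12 h the controls stood at 4.503 and 9.48, EGF-BT474 at 41.3 and 59.3 and HRG-BT474 at 41.2 and 46.0, that is 43.3 points ± 8.02 (SE, adjusted p = 0.00544) and 36.6 points ± 8.02 (SE, adjusted p = 0.0113). These controls were lower than those of 24 h, 25.9 and 17.0, and than baseline, 30.3 and 10.9. HRG at 24 h was called too (34.7 points). At 1 h the libraries overlapped, with 24.2 and 3.53 after EGF and 21.2 and 19.9 in controls. Its neighbour at 5.6 kb differed from controls early instead. At 1 h it stood at 41.8 and 47.9 after EGF, 52.1 and 47.0 after HRG and 25.6 and 20.6 in controls. The differences were 21.7 and 26.4 points (limma, adjusted p = 0.0400 and 0.00593). The untreated baseline libraries stood at 42.1 and 35.7, above the 1 h controls and the first of them above the lower EGF value. A region at 42.8 kb was called at 12 h of EGF alone (20.7 points, adjusted p = 0.0373). The CDH1 promoter was called at no time after either ligand: EGF-BT474 ranged from 69.1 to 74.7, HRG-BT474 from 69.3 to 72.6 and control-BT474 from 69.0 to 74.6.

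**Figure D4:**
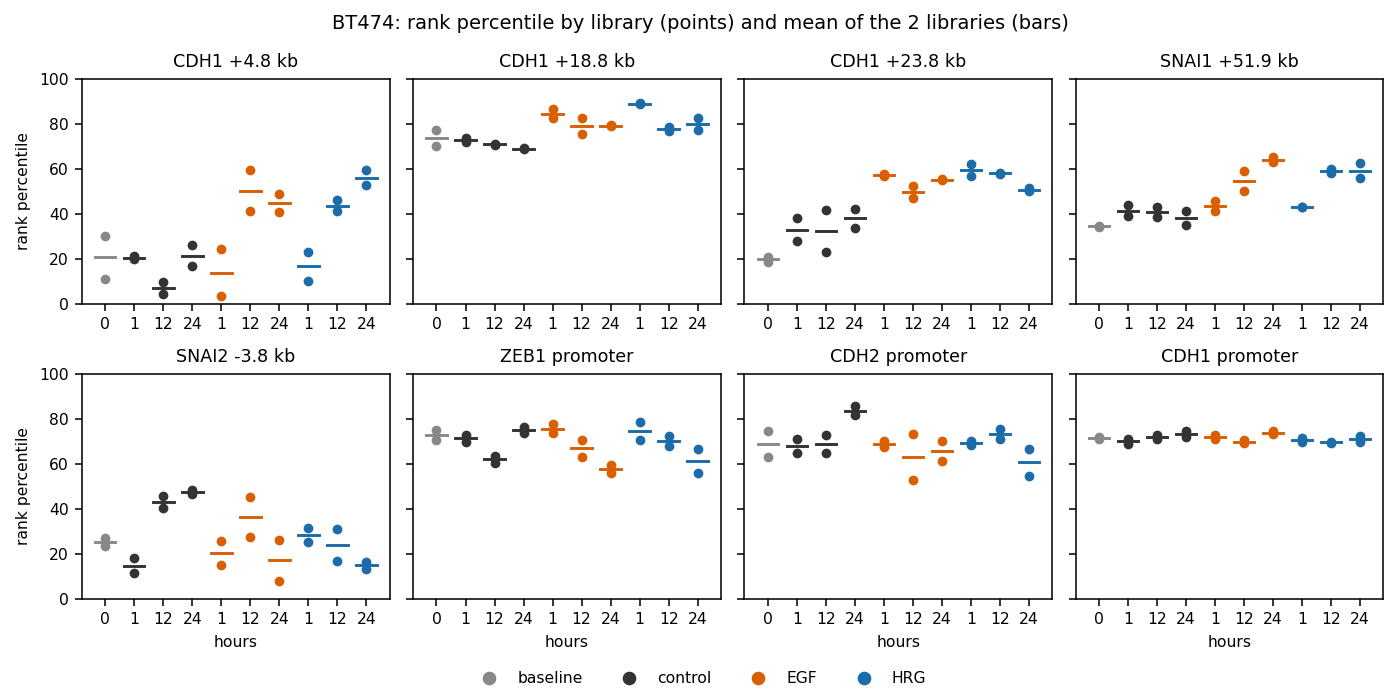
Rank percentile (vertical axis) in BT474 at 8 named regions by arm (colour) and hours of treatment (horizontal axis); each point is a library and each bar the mean of the libraries with a peak. Points after EGF or HRG lie above all control points at CDH1 +18.8 and +23.8 kb, below the 24 h controls at 24 h at the SNAI2 upstream region and the ZEB1 and CDH2 promoters, and among the controls at the CDH1 promoter.

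Downstream of SNAI1, higher ranks after a ligand were called at 12 and 24 h. The region at 51.9 kb (chr20:50034656-50035149) stood at 43.8 and 39.1 at 1 h in controls and at 41.3 and 45.9 after EGF, which overlap. At 24 h it stood at 63.0 and 65.2 after EGF and 62.6 and 55.8 after HRG against 41.2 and 35.1, differences of 26.0 points ± 3.56 (SE, adjusted p = 4.77e-04) and 21.1 points ± 3.56 (SE, adjusted p = 0.00203), and it was also called at 12 h of each. Its neighbour at 55.7 kb rose by about 3 points at 12 and 24 h of EGF and at 24 h of HRG and fell by 2.61 points at 1 h of HRG. HRG at 12 h raised the regions at 45.1 and 47.8 kb by 10.1 and 25.0 points (adjusted p = 0.0169 and 0.0174). The region at 7.5 kb fell by 24.3 points at 1 h of HRG, to 8.72 and 0.539 from 32.9 and 24.9 (adjusted p = 0.0249). The SNAI1 promoter was called at no time.

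Regions at SNAI2 and ZEB1 ranked lower at 24 h of either ligand, and the promoters of TWIST1 and CDH2 at 24 h of HRG. The SNAI2 promoter was not called with either ligand. The region 3.8 kb upstream of SNAI2 stood at 46.4 and 48.5 in 24 h controls, 7.88 and 26.4 after EGF and 16.5 and 13.3 after HRG (-30.3 and -32.5 points, adjusted p = 0.0114 and 0.00915). Its 24 h controls were higher than those of 1 h, 11.3 and 18.0, and than baseline, 27.1 and 23.5. The ZEB1 promoter stood at 76.3 and 73.6 in 24 h controls, 56.1 and 59.6 after EGF (-17.1 points ± 3.85, SE, adjusted p = 0.00986) and 66.6 and 56.0 after HRG (-13.6 points ± 3.85, SE, adjusted p = 0.0351). Its 12 h controls were lower than those of 24 h, at 63.6 and 60.3, and lay between the 2 HRG values of 24 h. In HRG-BT474 at 24 h the CDH2 promoter stood at 66.6 and 54.8 against 85.7 and 81.7 (-23.0 points ± 6.01, SE, adjusted p = 0.0249) and the TWIST1 promoter at 89.7 and 85.9 against 92.5 and 93.1 (-5.03 points, adjusted p = 0.0205). The 24 h controls of CDH2 were the highest values of that promoter in BT474, and the widest, 2104 bp on average against 1308 bp at 1 h. At 1 and 12 h none of these 4 regions was called. The region at an internal start of CDH1, 63.3 kb after the gene start, was also lower at 24 h of HRG (-15.4 points, adjusted p = 0.0459).

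These rank calls depended on what the score measures. Per base, a library took the highest value of any of its peaks in the region, not always the peak with the highest score. With the score divided by the width of the peak, limma called 0 members in EGF-BT474 (15 at an unadjusted p below 0.05) and 1 in HRG-BT474 (15 at an unadjusted p below 0.05), the CDH1 region at 23.8 kb at 12 h. Of the 33 calls, 12 of 14 for EGF and 17 of 19 for HRG kept their sign, and the ZEB1 promoter at 24 h and the CDH1 region at 18.8 kb at 1 h turned. At 24 h ZEB1 promoter peaks averaged 1108 bp after EGF and 1104 bp after HRG against 1420 bp in controls. With percentiles among the tested regions alone, 28 of the 33 calls held. Without EGF-BT474 replicate 1 at 12 h the EGF calls numbered 22, and without control replicate 1 or 2 at 24 h the HRG calls numbered 12 or 10.

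BT474R gave fewer calls. The number of open regions ranged from 27 to 41 in EGF-BT474R, from 30 to 43 in HRG-BT474R and from 23 to 42 in its controls, which overlap. In the same order, the shares over all regions were 61.03%, 65.37% and 59.31%. No member was called by presence, against 3.67% gained and 0.411% lost of 6819 testable regions with EGF and 2.31% gained and 0% lost of 6415 with HRG, and 3 and 5 members had totals that allowed a call. The region 51.2 kb after the start of SNAI1, open in 0 of 6 controls and 0 of 2 baseline libraries of BT474R too, was open in 4 of 6 EGF-BT474R libraries (exact p = 0.0606) and 3 of 6 HRG-BT474R libraries (exact p = 0.182). The region 12.9 kb upstream of SNAI1 was open in 3 of 6 EGF-BT474R libraries and 0 of 6 controls. In HRG-BT474R the CDH1 introns at 4.8 and 42.8 kb were open in 5 and 6 of 6 libraries, against 2 and 3 of 6 controls. The region beyond ZEB2 was open in 5 of 6 against 2 of 6. At single times of EGF-BT474R, 1 of 12 variable members was open in both EGF libraries and neither control at 1 h and 3 in the opposite direction, 1 of 8 and 0 at 12 h, and 8 of 16 and 0 at 24 h. The share over all variable regions was 3.41% and 23.7% at 1 h, 13.6% and 4.99% at 12 h, and 37.3% and 4.08% of 15856 at 24 h, and these 2 against 2 comparisons have no test. The 8 members at 24 h included the 2 regions near SNAI1 that HRG gained in BT474.

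Of 22 members tested by rank in BT474R, EGF raised 2 and HRG 4, all at 12 h, against 6.23% and 14.0% of 28260 regions. The CDH1 region at 23.8 kb stood at 18.9 and 30.9 in 12 h controls, 48.2 and 52.8 after EGF and 52.3 and 44.1 after HRG (25.6 and 23.3 points, adjusted p = 0.0157 and 0.0206), and that at 18.8 kb rose by 15.1 and 12.1 points. HRG also raised the CDH3 intron region at 22.6 kb, from 25.4 and 35.4 to 58.3 and 53.9 (25.7 points, adjusted p = 0.00477), and the region 5.0 kb before CDH1 (20.1 points, adjusted p = 0.0256). With the score divided by peak width none of the 2 EGF and 4 HRG calls held, and 1 of the HRG differences turned. At 1 and 24 h no member was called (limma; 1 and 4 of 22 at an unadjusted p below 0.05 for EGF, 0 and 0 for HRG).

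The 12 h controls of BT474R were themselves low. Against baseline they were lower at 5 members, while 32.3% of all regions were called lower at 12 h, with a median difference over all regions of -8.45 points. The members were the CDH3 region at 22.6 kb (-28.9 points), the CDH1 regions at 23.8 and 41.6 kb (-23.2 and -8.44), the region 5.0 kb before CDH1 (-21.8) and the region downstream of VIM (-17.8). These are the same control libraries that the ligand values at 12 h were set against, and their lists were among the shortest. With percentiles among the tested regions alone, EGF had 4 calls, 2 of them lower, and HRG 1, the CDH3 region. Without the control replicates at 12 h in turn, EGF had 5 or 9 calls and HRG 0 or 8, and without an EGF replicate at 12 h EGF had 0; without the HRG replicates at 12 h HRG had 0 or 1. Without a baseline replicate the vehicle calls numbered 13 or 9, and without a 12 h control 2 or 9.

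**Figure D5:**
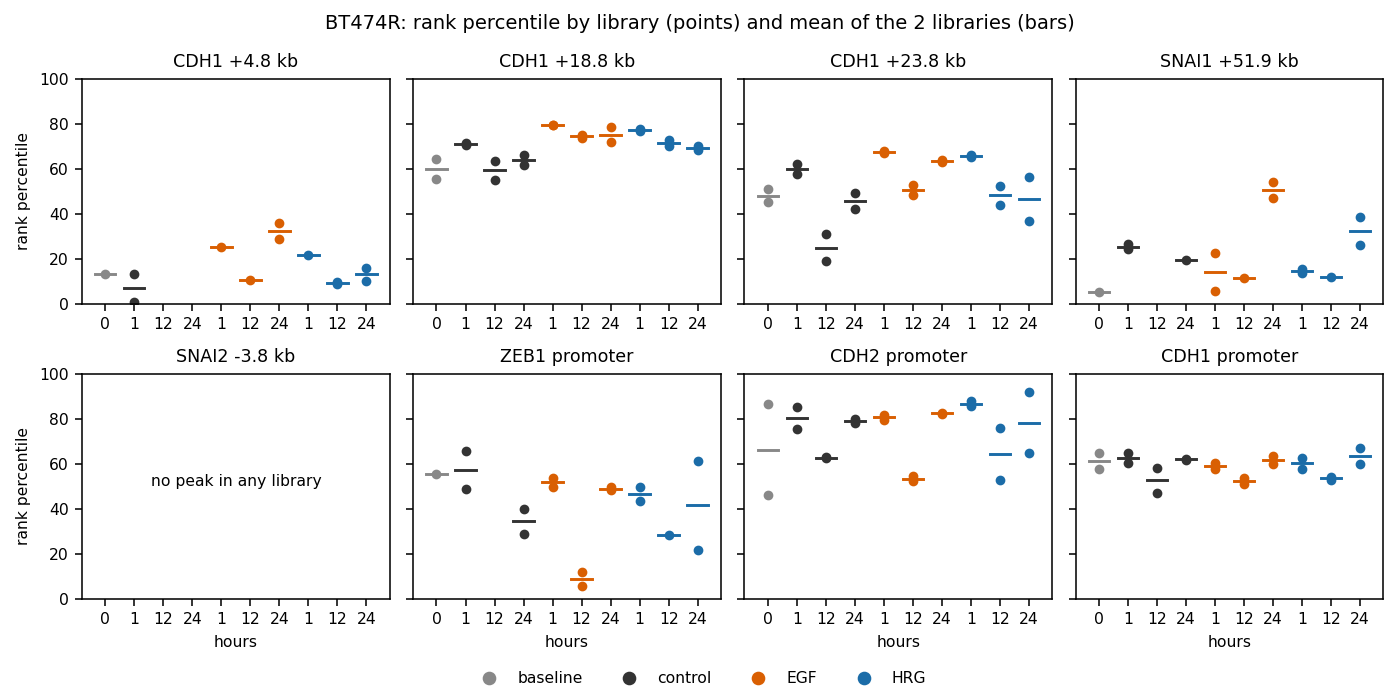
The same 8 regions and axes in BT474R; a condition with a single point had a peak in 1 library only, and one with no point had none. The 12 h controls are low at CDH1 +23.8 kb (18.9 and 30.9), the SNAI2 upstream region has no peak in any library, and the ligand and control points overlap at the CDH1 promoter.

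Whether the lines responded differently was tested as an interaction over the 21 members open in all 40 libraries. EGF gave no call (limma; 1, 0 and 0 members at an unadjusted p below 0.05 at 1, 12 and 24 h). HRG gave 1 at 12 h, the CDH3 intron region at 22.6 kb, against 0.536% of all regions in that direction. The CDH1 regions at 18.8 and 23.8 kb, called in both lines, did not pass this test at any time.

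The member regions shared some sequence features. AP-1 motif matches lay in 14 of the 61 windows of 200 bp, 23% against 12.9% of all regions, and outside promoters in 13 of 43, 30.2% against 15.5%. Of the 10 regions that were called higher after a ligand in BT474, 4 held a match, among them the CDH1 regions at 18.8 and 23.8 kb and the SNAI1 region at 51.9 kb shown above. Of the 7 called lower at some time, none did. These 7 included the ZEB1, TWIST1 and CDH2 promoters and the internal start of CDH1, whereas no region called higher lay at a promoter. Over all regions, 5.54% of promoter regions and 15.5% of the others held a match. The groups shared 1 region, and a link of the motif with the direction of the response was not tested. The E-box CAGGTG lay in 26.2% of member windows against 23.4% of all, and a FOXA motif, TGTTTAC, in 1 of 61 (1.64% against 8.48%). The median width was 593 bp against 551 bp.

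Beyond the 10 genes, promoters of 15 of 15 epithelial adhesion genes (EPCAM, claudins, catenins and others) and of 12 of 12 epithelial regulators (such as GRHL2, OVOL1 and ESRP1) were open in all 20 libraries of either line. Other EMT regulators were open in all libraries at 14 of 20 genes in BT474 and 12 of 20 in BT474R, and mesenchymal genes at 12 and 8 of 20, against 56.8% of protein-coding genes in all 40 libraries. Between lines, 6 of 7 testable promoter regions of the EMT regulators and 4 of 6 of the mesenchymal genes were less often open in BT474R, and none more often. For epithelial adhesion genes 3 of 5 were lower and 2 higher, and for epithelial regulators 2 and 1 of 5. Over all testable regions 44.6% were lower and 27.2% higher, and lists this short were not read against that share. Promoters of AXL, a receptor tyrosine kinase, and ACTA2, smooth muscle actin, were open in 19 and 17 BT474 libraries and in 0 BT474R libraries. No promoter region of these lists was called by presence after EGF or HRG in either line, with at most 3 testable in a list.

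The promoters whose rank followed each member most closely over the 20 condition means, among 11281 genes, were described by Spearman's rho. For CDH1 they were HERPUD1 (0.979), HES1 (0.973) and BMAL1 (0.970), for SNAI1 RNF19A (0.968), GFM1 (0.953) and ZNF337 (0.947), and for TWIST1 CDHR3, ATXN7L1 (0.971 each) and CDHR2 (0.970). For CDH2 they were EN2 (0.922), GPM6B (0.916) and MYH9 (0.872), for VIM TKT (0.898), GPM6B (0.895) and PIAS2 (0.893), for SNAI2 INTS6 (0.904), SMAD4 (0.896) and PHF3 (0.844), and for the CDH3 promoter at 9.3 kb SELENOO (0.920), ZFYVE9 and HIPK1 (0.875 each). All promoters of a condition come from the same libraries and list lengths.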

How the data were processed

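ATAC-seq was measured in 40 libraries. The authors trimmed reads with TrimGalore (version 0.6.6 in the submitters' processing notes), mapped them to GRCh38 with BBMap and called peaks in each library with Genrich, without mitochondrial reads and blacklisted regions, and no source used here gives the Genrich options. The deposited peak score is a signal (area under the curve of significance, lowest value 200 in every list), and the authors also deposited −log10 p and −log10 q values, which were not tested. The study's count model on reads was not repeated, since read counts were not analysed here.

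Groups came from the sample labels. Chromosomes 1 to 22 and X and GENCODE 44 were used. Presence was tested with Fisher's exact test and rank percentiles with limma 3.58.1 (group means, moderated variance with trend), fitted per line, or over both lines for line differences and interactions, always over all regions and adjusted by Benjamini-Hochberg at 0.05. Ligand presence used unadjusted p. Both procedures were tested on simulated data. Alternatives were a minimum score of 400, the top 32479 peaks of every list, 50% of a region covered by peaks, regions in 4 or more lists, percentiles among tested regions, score per base, a replicate block and each library left out. For the score per base (score divided by peak width), the peak with the highest value per base in the region was used. It can differ from the peak with the highest score. The members, gene lists (epithelial adhesion, epithelial regulators, EMT regulators, mesenchymal) and cell type markers were chosen with earlier results of these data known. Named were promoter regions, called regions, regions differing by at least 3 of 6 (ligands) or 10 of 20 (lines) libraries and the highest region. Python 3.11.15, scipy 1.17.1, pandas 2.3.3, pysam 0.24.0, samtools 1.23.1, R 4.3.3 and matplotlib 3.10.9 were used. The sequences of some regions are not reported here.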

Additional observations from a re-analysis of the deposited data

Results flagged for a closer look

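One result was picked out because the response to the same ligand differed between the lines by a test of the difference itself. At the CDH3 intron region 22.6 kb after the gene start (chr16:68658268-68659286), HRG at 12 h moved the rank percentile by 25.7 points in BT474R and by 2.38 points in BT474, a difference of 23.3 points ± 5.31 (SE, limma, adjusted p = 0.0379). In BT474 the controls stood at 69.9 and 72.0 and the HRG libraries at 71.7 and 75.0. In BT474R the controls stood at 25.4 and 35.4, the lowest values of this region in any condition, and the HRG libraries at 58.3 and 53.9, against 63.7 and 54.9 at baseline. The 12 h controls of BT474R had lists of 32479 and 40331 peaks, among the shortest, and their part in the difference was not tested. The call was lost without either library of control-BT474, HRG-BT474 or HRG-BT474R at 12 h, either EGF-BT474 library at 24 h or control-BT474R replicate 1 at 12 h (0 calls each), while without control-BT474R replicate 2 at 12 h the HRG interaction had 3 calls and without HRG-BT474R replicate 1 at 24 h it had 2. The number of open regions per library was checked for a library far from the rest in the 6 groups of 6, and none was found.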

How the results depend on the processing

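Of 62 counts of calls recomputed under settings other than leaving a library out, 41 stayed within 1.5 times the reported count and 21 moved. By presence, with a score of at least 400 or an equal number of top peaks, EGF-BT474 and HRG-BT474 had 0 calls, and with equal numbers the lines had 12. By rank, the score per base gave 0 calls in EGF-BT474, 1 in HRG-BT474, 3 in vehicle-BT474, 1 in EGF-BT474R, 0 in HRG-BT474R and 2 in vehicle-BT474R; a score of at least 400 gave 9, 11, 1 (HRG-BT474R) and 3 (vehicle-BT474R); and percentiles among tested regions gave 4 in EGF-BT474R, 1 in HRG-BT474R and 3 in vehicle-BT474R. The HRG interaction had 0 under each of these 3. The causes were not tested.

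Leaving out 1 library at a time gave, by presence, 1 to 2 calls in EGF-BT474, 2 to 3 in HRG-BT474, 0 to 1 in EGF-BT474R, 0 in HRG-BT474R and 19 to 22 between lines. By rank it gave 10 to 22 in EGF-BT474, 10 to 25 in HRG-BT474, 0 in vehicle-BT474, 0 to 9 in EGF-BT474R, 0 to 8 in HRG-BT474R, 2 to 13 in vehicle-BT474R, 15 to 18 between lines, 0 for the EGF interaction and 0 to 3 for the HRG interaction.

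The presence count in EGF-BT474 was 2 without either EGF or control library at 1 h or replicate 1 of EGF at 12 or 24 h, and that in EGF-BT474R was 1 without replicate 2 of EGF at 1 or 12 h.

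The region beyond ZEB2 turned to more often open in BT474R, by 10.0, 15 and 10.0 percentage points, with a score of at least 400, equal numbers and 50% coverage. With the score per base, the CDH1 region at 18.8 kb turned at 1 h (-13.1 points with EGF, -20.3 with HRG), as did the ZEB1 promoter at 24 h (36.6 and 15.2), the region 5.0 kb before CDH1 at 12 h in BT474R (-8.20 with HRG, 8.91 for vehicle) and, between lines, the GTDC1 promoter (-4.03), the ATIC promoter (2.70) and the CDH1 region at 8.2 kb (11.1).

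Replicate numbers did not pair the libraries: correlations of deviations with the same number ran from -0.077 to 0.200. With the replicate block the line comparison had 17 rank calls in place of 16 and no other count changed. Depth was unknown, so absence of a peak is not absence of accessibility.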
